A study of Mus musculus with 6 samples.

Results

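The genes described here carry out and police cell division: cyclins and kinases of mitotic entry, motors and scaffolds of the spindle, proteins of the centromere and kinetochore, the spindle checkpoint, the anaphase machinery and cytokinesis. A list of 38 such genes was followed in mouse small-cell lung cancer cells. A gene counted as measured when a row of the array's value table named it and no other gene, which held for 37 of the 38 among 22179 genes measured in this way. The exception, the cyclin Ccnb1, was not analysed here.

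The tumours arose in Rb/p53/p130 conditional triple knockout mice given Adeno-Cre into the trachea, so both populations come from mice with those 3 conditional alleles and the reporter. Whether Cre had acted in every sorted cell is not shown by the values here. The reporter allele makes cells that express Hes1, a Notch-induced repressor, fluoresce green. Tumours were taken 5 to 6 months after Cre and pooled, with pools of 3 mice named in the protocol, and sorted into GFP-negative and GFP-high cells. The groups were 3 GFP-high and 3 GFP-negative samples of total RNA on Affymetrix Mouse Gene 2.0 ST arrays. The labels do not say which promoter drives Cre, how old the mice were at infection, how the gates were set or whether the populations with the same number came from 1 pool. Values are on the log2 scale, as deposited after RMA, the authors' summary of the probes. A difference of 1 is therefore 2-fold, and levels are not compared between genes.

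Most of these genes are silent in resting cells and are transcribed as cells pass from S phase to mitosis. The repressor complex DREAM, which contains p130 or p107 together with the MuvB core, holds them off in quiescence, and the activators B-MYB and FOXM1 bind MuvB to turn them on. In bulk RNA their level follows the share of cells in late S, G2 and mitosis, and small-cell lung cancer is known for a high share. Fewer cycling cells and less of these RNAs per cycling cell cannot be told apart in such samples. Many of their promoters carry a cell cycle homology region (CHR), the site at which MuvB binds, near the transcription start, with CCAAT boxes (also called Y boxes, bound by NF-Y) upstream of it.

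Promoters are shown for 10 genes to print what the motif counts below rest on. The first 7 genes were lower in GFP-high cells and carry both motifs, Nuf2 and Birc5 were lower and carry neither, and securin (Pttg1) was not lower and carries neither. The sequences are from RefSeq (GRCm38.p6), on the strand of the gene, from 110 bases before the transcription start to base 15 of the transcript. Capitals mark the letters TTTGAA (CHR) or CCAAT, on either strand.
Ccnb2, chr9:70421540-70421664 (minus strand): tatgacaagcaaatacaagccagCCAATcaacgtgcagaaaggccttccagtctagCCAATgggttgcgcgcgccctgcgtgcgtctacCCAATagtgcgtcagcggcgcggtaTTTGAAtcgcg
Cdk1, chr10:69352898-69353022 (minus strand): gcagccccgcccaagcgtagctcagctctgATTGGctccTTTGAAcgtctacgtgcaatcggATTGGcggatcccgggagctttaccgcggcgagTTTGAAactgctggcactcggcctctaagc
Cdc20, chr4:118437329-118437453 (minus strand): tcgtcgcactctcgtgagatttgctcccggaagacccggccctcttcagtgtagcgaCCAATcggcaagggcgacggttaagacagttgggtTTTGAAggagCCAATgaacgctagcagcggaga
Ube2c, chr2:164769819-164769943 (plus strand): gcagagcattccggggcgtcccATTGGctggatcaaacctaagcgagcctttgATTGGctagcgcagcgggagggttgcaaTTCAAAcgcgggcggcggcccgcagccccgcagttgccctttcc
Ttk, chr9:83834579-83834703 (plus strand): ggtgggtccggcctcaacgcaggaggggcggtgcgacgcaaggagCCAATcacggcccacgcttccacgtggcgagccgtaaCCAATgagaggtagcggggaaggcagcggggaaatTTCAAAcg
Top2a, chr11:99024175-99024299 (minus strand): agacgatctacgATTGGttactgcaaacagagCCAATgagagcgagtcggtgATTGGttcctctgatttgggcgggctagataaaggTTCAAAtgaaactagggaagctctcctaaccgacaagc
Espl1, chr15:102296183-102296307 (plus strand): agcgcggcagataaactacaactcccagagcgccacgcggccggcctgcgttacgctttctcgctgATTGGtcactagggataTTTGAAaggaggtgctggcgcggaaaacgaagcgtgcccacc
Nuf2, chr1:169531450-169531574 (minus strand): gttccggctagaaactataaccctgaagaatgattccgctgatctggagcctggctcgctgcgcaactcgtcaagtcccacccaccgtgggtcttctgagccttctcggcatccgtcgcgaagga
Birc5, chr11:117849127-117849251 (plus strand): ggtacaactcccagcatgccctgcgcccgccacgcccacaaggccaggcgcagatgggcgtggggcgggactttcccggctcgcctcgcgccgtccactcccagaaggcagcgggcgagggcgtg
Pttg1, chr11:43425967-43426091 (minus strand): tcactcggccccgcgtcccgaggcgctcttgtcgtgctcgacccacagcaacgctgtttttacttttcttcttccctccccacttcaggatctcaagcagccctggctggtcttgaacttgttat

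In Ccnb2, 3 CCAAT boxes preceded a CHR that began 4 bases after the start base. In Ube2c and Ttk the CHR letters ran on the opposite strand, 29 bases before and 7 bases after the start base. The windows of Nuf2, Birc5 and Pttg1 held neither motif. The start used for Pttg1 lies 1482 bases inside the annotated gene, so that window is not the promoter of its outermost start. Among the windows counted below, starts also lay inside the gene by 399 and 375 bases for Ect2 and 316 for Aurka. For 1 window of Bub3 it was 127 bases, for Mki67 71, and for the rest at most 39.

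RefSeq promoter windows of 300 bases (250 before and 50 after the start) were found for 30 of the 37 measured genes. Bub3, Ect2 and Prc1 had 2 windows each. A gene was counted when any of its windows held the motif, whereas the share of all windows counts each window. TTTGAA was present on either strand in 21 of these 30 genes (70.0%), against 17.9% of all 32851 windows. In 19 of the 30 (63.3%) it began within 50 bases of the start, against 4.94% of all windows. CCAAT was present in 22 of the 30 genes (73.3%), against 37.4% of all windows, and both motifs in 19 (63.3%), against 6.95%. In 1 of the 30 genes a match of one motif overlapped a match of the other. Neither motif was found for Birc5, Mad2l1, Melk, Nuf2, Nusap1 or Pttg1. All of these but Pttg1 were lower in GFP-high cells, as were the 19 genes with both motifs. These counts are a description, and a match is not evidence of binding.

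**Figure D1:**
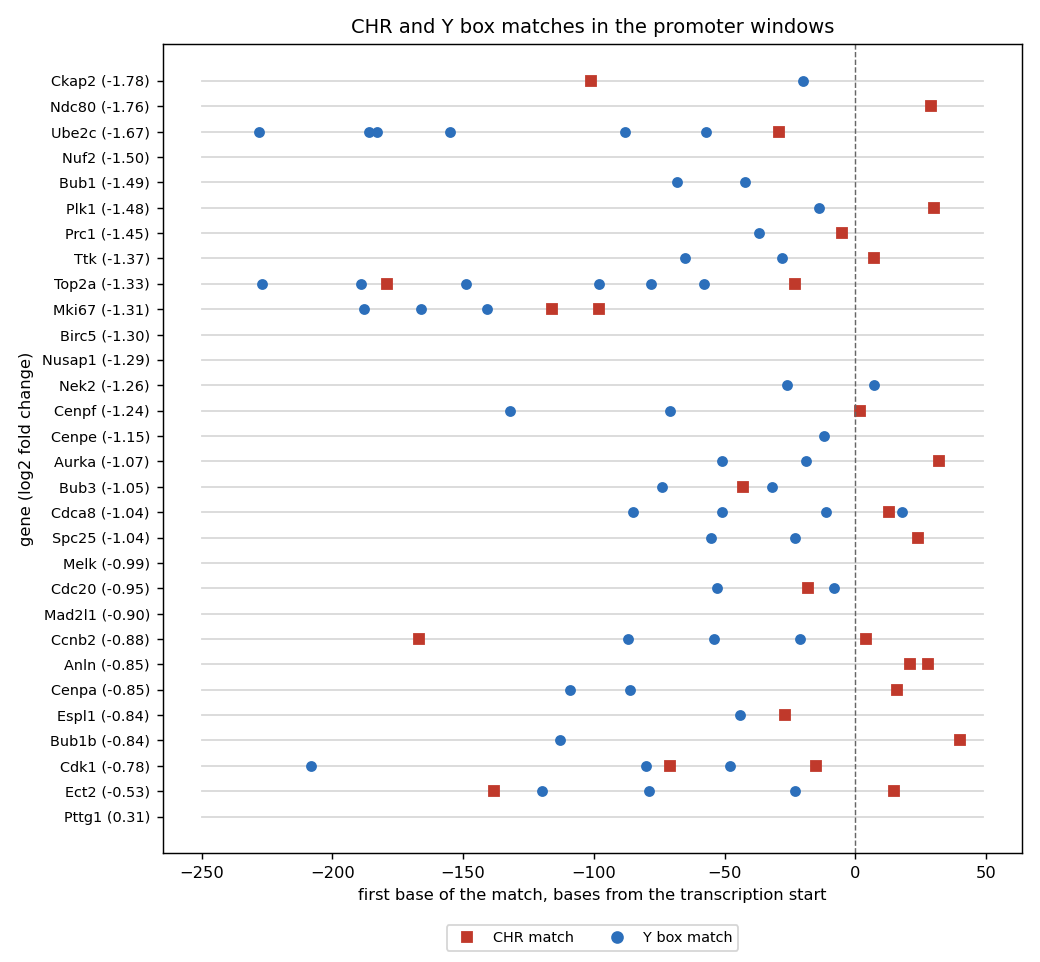
Positions of CHR (squares) and Y box (circles) letters in the RefSeq promoter windows of 30 mitosis genes, by distance in bases of the first base of the match from the transcription start, with the genes ordered by their log2 fold change, which is given in brackets. The squares gather near the start, 6 genes have no match of either kind, and for genes with 2 windows 1 is drawn.

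Hes1, the gene that drives the reporter, separated the sorted populations. It read 10.49, 10.27 and 10.43 in GFP-high and 6.93, 6.98 and 6.65 in GFP-negative arrays, with no overlap. Neuroendocrine markers, which define small-cell lung cancer, were lower in GFP-high than in GFP-negative cells in 13 of 13 measured cases (median log2 fold change -2.29). Syp and Uchl1 in this list also had a dimmer row, with log2 fold changes of 0.09 and 0.03 that did not pass an adjusted p under 0.05 by limma. Chromogranin A (Chga) was 11.47 ± 0.14 in GFP-negative and 9.17 ± 0.49 in GFP-high cells (SD, n = 3 each).

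The mitosis genes were lower in GFP-high cells almost without exception. Of the 37 measured, 35 (94.6%) fell at an adjusted p under 0.05 by limma, against 17% of all 22179 genes tested that were lower. None was called higher, also at an unadjusted p under 0.05 by limma or by the same model without moderation (0 genes each). The 2 that did not pass were Incenp and Pttg1. The median log2 fold change was -1.10, that is 2.14-fold lower, whereas the median over all genes was 0.01. The fall was called and at least 2-fold for 25 of the 37 (67.6%), against 6.02% of all genes. For 36 of 37 the 3 GFP-high values all lay below the 3 GFP-negative values, against 24.6% of all genes. Without moderation of the variances 27 of the 37 were called lower, and the calls of Ccnb2, Cdk1, Foxm1, Dlgap5, Cenpa, Cdc20, Espl1 and Ect2 were lost (adjusted p 0.0590 to 0.152).

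**Figure D2:**
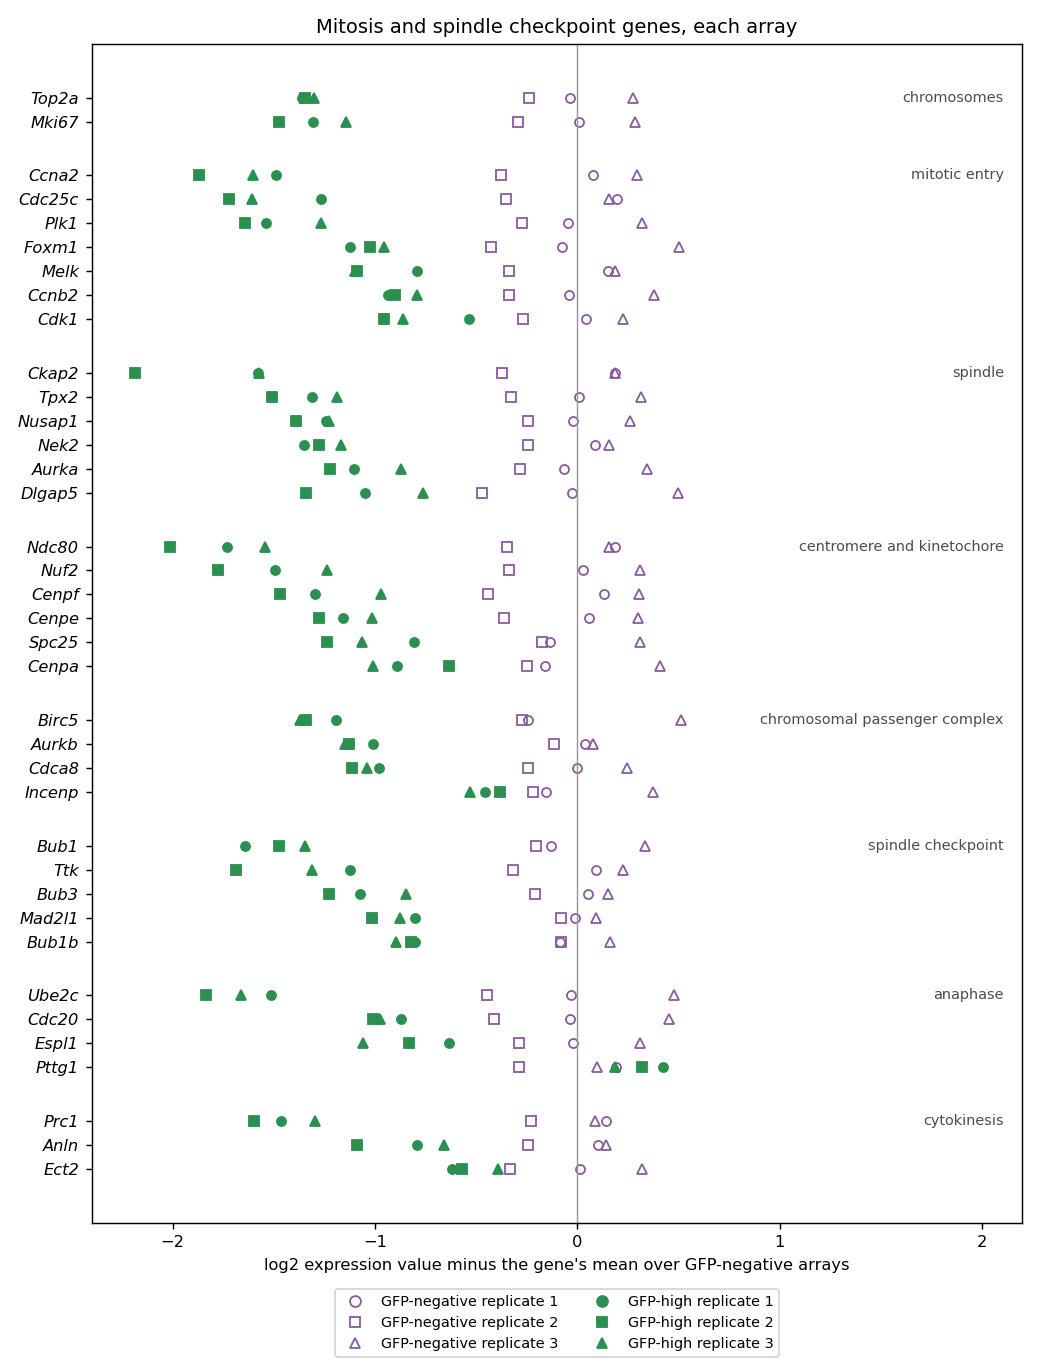
Log2 expression value of each of the 37 mitosis genes in each array, minus that gene's mean over the GFP-negative arrays, grouped by role and ordered by fold change within a role. Open symbols are GFP-negative and filled symbols GFP-high arrays, and the shape gives the replicate. For 36 genes the filled symbols lie to the left of the open ones, and Pttg1 overlaps.

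The 2 markers of dividing cells were both lower. Mki67, the proliferation antigen Ki-67 that coats mitotic chromosomes, read 9.63, 9.46 and 9.79 in GFP-high arrays and 10.94, 10.64 and 11.22 in GFP-negative arrays. The groups stood apart, by 0.85 between the highest GFP-high and the lowest GFP-negative value, and the log2 fold change was -1.31 ± 0.17 (SE, adjusted p = 0.000442). Top2a, the topoisomerase that untangles sister chromatids, read 8.45, 8.46 and 8.51 against 9.78, 9.57 and 10.08. Its GFP-high values nearly coincided, below all GFP-negative ones, and the log2 fold change was -1.33 ± 0.14 (2.52-fold down, adjusted p = 0.000188).

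All 7 measured genes of mitotic entry fell, with log2 fold changes from -1.65 to -0.78. Cyclin A2 (Ccna2), the cyclin of S and G2 phase, was 8.08, 7.70 and 7.97 in GFP-high and 9.65, 9.19 and 9.87 in GFP-negative arrays. It was the lowest of this group, 3.15-fold down (-1.65 ± 0.19, adjusted p = 0.000236). Cdk1, the kinase that cyclins A and B activate, was 8.06, 7.64 and 7.73 against 8.63, 8.32 and 8.82. Its groups came close, with 0.27 between them, and it fell least among the entry genes (-0.78 ± 0.17, 1.72-fold, adjusted p = 0.00688). Cyclin B2 (Ccnb2) read 7.93, 7.97 and 8.08 against 8.83, 8.53 and 9.25 and was 1.83-fold down. The 95% intervals of the log2 fold changes of Cdk1 and this partner cyclin were -1.16 to -0.40 and -1.28 to -0.47. Cdc25c, the phosphatase that switches Cdk1 on, fell further (-1.53 ± 0.18), as did Polo-like kinase 1 (Plk1, -1.48 ± 0.17), which read 7.37, 7.26 and 7.64 against 8.86, 8.63 and 9.23. The RNA of Foxm1, which encodes an activator of many genes listed here, was lower too and read 6.72, 6.82 and 6.89 against 7.77, 7.42 and 8.35. Its GFP-negative values were widely spread, with an SD of 0.47 against 0.08, and the fold change was -1.03 ± 0.21 (adjusted p = 0.00609). The kinase gene Melk fell by 0.99 ± 0.17 on the log2 scale.

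The 6 spindle genes all fell at least 2-fold. Ckap2, a microtubule-binding spindle protein, had the lowest fold change of all 37 genes. It read 7.54, 6.93 and 7.55 in GFP-high and 9.30, 8.75 and 9.31 in GFP-negative arrays. The gap between the groups was 1.20, and the level was 3.43-fold down (-1.78 ± 0.21, adjusted p = 0.000336). Tpx2, which activates and targets Aurora A to the spindle, fell by 1.33 ± 0.17, and Aurora A itself (Aurka) by 1.07 ± 0.18 on the log2 scale. Nusap1, which bundles microtubules, Nek2, a centrosomal kinase, and Dlgap5, which stabilises kinetochore fibres, changed by -1.29 ± 0.15, -1.26 ± 0.14 and -1.05 ± 0.24. Dlgap5 had the largest standard error of the 37 genes, and its groups were 0.29 apart.

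All 6 centromere and kinetochore genes fell, with log2 fold changes from -1.76 to -0.85. The NDC80 complex links the kinetochore to microtubules. Its gene Ndc80 read 7.57, 7.29 and 7.76 in GFP-high and 9.49, 8.96 and 9.46 in GFP-negative arrays. These groups were 1.20 apart, and Ndc80 was 3.39-fold down (-1.76 ± 0.18, 95% interval -2.18 to -1.35, adjusted p = 0.000148). Its partner Nuf2 was 6.93, 6.64 and 7.18 against 8.45, 8.08 and 8.73 (-1.50 ± 0.19). Spc25, in the other arm of the complex, was 6.64, 6.21 and 6.39 against 7.32, 7.28 and 7.76 (-1.04 ± 0.17). The fourth subunit, Spc24, named here after its value was seen, fell by 0.45 ± 0.12 on the log2 scale (95% interval -0.72 to -0.18, adjusted p = 0.0209). Differences in size between these 4 subunits, and between other members, were not tested. The kinesin Cenpe (-1.15 ± 0.17) and the coronal protein Cenpf (-1.24 ± 0.21) fell as well. Cenpa, the histone variant that marks centromeres, fell least of the 6 (-0.85 ± 0.19, 1.80-fold).

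The chromosomal passenger complex corrects faulty attachments, and 3 of its 4 genes passed the test. Aurora B (Aurkb), its kinase, read 6.59, 6.48 and 6.46 in GFP-high and 7.64, 7.49 and 7.68 in GFP-negative arrays. Both groups were tight and did not overlap, and Aurkb had the smallest standard error of the 37 genes (-1.10 ± 0.11, adjusted p = 0.000142). Survivin (Birc5) fell by 1.30 ± 0.21 and borealin (Cdca8) by 1.04 ± 0.14 on the log2 scale. Incenp, the scaffold that holds the kinase, read 6.76, 6.83 and 6.69 against 7.06, 6.99 and 7.59. Its values did not overlap but were only 0.16 apart, and the difference did not pass (-0.46 ± 0.17, 95% interval -0.84 to -0.08, adjusted p = 0.0719).

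All 5 spindle checkpoint genes, which delay anaphase until every kinetochore is attached, fell. Bub1, a checkpoint kinase, read 5.79, 5.95 and 6.08 in GFP-high and 7.30, 7.22 and 7.76 in GFP-negative arrays. Its groups were 1.14 apart, with a 2.80-fold fall (-1.49 ± 0.16, adjusted p = 0.000212). Ttk (MPS1), the kinase at the head of the checkpoint, was 6.96, 6.40 and 6.78 against 8.18, 7.77 and 8.32 (-1.37 ± 0.19). The genes whose products form the inhibitor of the anaphase-promoting complex had smaller changes: Bub1b (BUBR1) by 0.84 ± 0.12, Mad2l1 (MAD2) by 0.90 ± 0.11 and Bub3 by 1.05 ± 0.15 on the log2 scale. Cdc20, which that inhibitor holds, fell by 0.95 ± 0.20. Bub3 is also known to act outside mitosis, and its values of 8.73, 8.58 and 8.96 lay below 9.86, 9.60 and 9.96 like those of the others.

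Among the 4 anaphase genes 3 fell and securin did not. Ube2c, the ubiquitin-conjugating enzyme of the anaphase-promoting complex, read 7.36, 7.03 and 7.21 in GFP-high and 8.84, 8.42 and 9.34 in GFP-negative arrays, 3.18-fold down with 1.07 between the groups. Separase (Espl1), the protease that cuts cohesin, was 6.40, 6.20 and 5.97 against 7.01, 6.74 and 7.34. It fell by 0.84 ± 0.18 on the log2 scale (adjusted p = 0.00670). Securin (Pttg1), which inhibits separase until it is destroyed, was the exception among the 37. It read 7.33, 7.23 and 7.09 in GFP-high and 7.096, 6.617 and 7.003 in GFP-negative arrays, so the groups overlapped and GFP-negative replicate 2 was the lowest array. The difference did not pass (0.31 ± 0.15, 95% interval -0.03 to 0.65, adjusted p = 0.163). The interval of Espl1 in the same arrays was -1.25 to -0.44, and the difference between these genes was not tested.

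The 3 cytokinesis genes fell to different degrees. Prc1, which bundles the central spindle, read 8.26, 8.13 and 8.43 in GFP-high and 9.87, 9.50 and 9.82 in GFP-negative arrays. It had the lowest adjusted p of the 37 genes (0.000109) and a 2.74-fold fall (-1.45 ± 0.14). Anillin (Anln), a scaffold of the contractile ring, fell by 0.85 ± 0.16. Ect2, the exchange factor that activates RhoA at the cell equator, read 9.61, 9.66 and 9.83 against 10.24, 9.89 and 10.55. The groups were 0.06 apart, and the change was -0.53 ± 0.17 (adjusted p = 0.0460). The call of Ect2 was lost after quantile normalization (0.0823) and without GFP-negative replicate 1 (0.113), GFP-negative replicate 3 (0.129), GFP-high replicate 1 (0.130), GFP-high replicate 2 (0.118) or GFP-high replicate 3 (0.0563).

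The mitosis genes also varied together, most sharply among GFP-negative arrays, and the same replicate numbers were most often lowest and highest in both groups. GFP-negative replicate 2 had the lowest GFP-negative value for 36 of 37 genes and GFP-negative replicate 3 the highest for 33. In GFP-high cells the order was less sharp. Replicate 2 was lowest for 23 genes and replicate 3 for 8, and replicate 3 was highest for 20 and replicate 1 for 15. Whether equal numbers mark a shared pool was not tested. For the GFP-negative replicates 2 and 3, the median differences from the GFP-negative mean were -0.29 and 0.30, and that of replicate 1 was 0.01. Over all genes tested the medians were 0.0125, -0.0121 and -0.0043 in GFP-negative replicates 1, 2 and 3. For the mitosis genes the GFP-high arrays lay at -1.12, -1.28 and -1.06 on the same scale, all below the lowest GFP-negative array. The SD was larger in GFP-negative than in GFP-high cells for 32 of 37 genes, with medians of 0.30 and 0.16. Counts of array order and of SD over all genes are not given here, so these are not set against a background. Left out, GFP-negative replicate 2 took the median log2 fold change to -1.285 and GFP-negative replicate 3 to -1.0002, with 35 and 34 genes called lower.

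**Figure D3:**
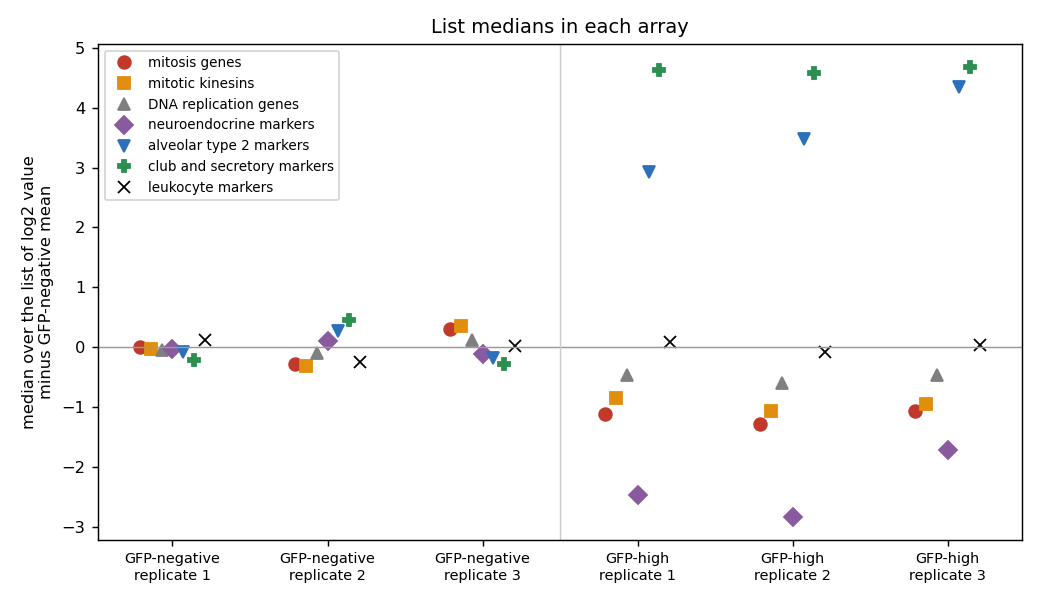
Median over each gene list of the log2 value minus the gene's GFP-negative mean, in each of the 6 arrays. The mitosis genes and mitotic kinesins lie near -1 in the GFP-high arrays, the neuroendocrine markers between -1.72 and -2.84 and the alveolar type 2 and club markers above 2.9, while leukocyte markers stay near 0.

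Markers of other cell types moved in the same arrays. Of all 22179 genes, 13% were called higher and 17% lower. Neuroendocrine markers had median differences of -2.46, -2.84 and -1.72 from the GFP-negative mean in GFP-high replicates 1, 2 and 3. The order of these 3 arrays was the same for the mitosis genes (-1.12, -1.28 and -1.06), with replicate 2 lowest and replicate 3 highest. Among the GFP-negative arrays the orders were opposite. Replicates 1, 2 and 3 had medians of -0.04, 0.10 and -0.11 for neuroendocrine markers and 0.01, -0.29 and 0.30 for mitosis genes. Whether these lists vary together was not tested. In the GFP-high arrays, alveolar type 2 markers (9 of 11 higher, such as Sftpc, 0 lower) had medians of 2.93, 3.47 and 4.34 above the GFP-negative mean. Club and secretory markers (8 of 9 higher) had medians of 4.62, 4.58 and 4.69 and alveolar type 1 markers (8 of 8 higher) of 2.22, 1.90 and 1.57. Ciliated markers were 1 higher and 2 lower of 7, endothelial markers 1 and 1 of 7, and fibroblast markers 0 and 1 of 7. Leukocyte markers did not pass in 11 of 11 cases, with 0 at an unadjusted p under 0.05 by limma, and the red cell markers were not analysed here. The part of these other cell types in the fall of the mitosis genes was not tested. Leaving out GFP-high replicate 3 gave a median of -1.19 over the mitosis genes, with 34 called lower.

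Most genes of 3 further lists of the mitotic machinery fell as well. Of 12 mitotic kinesins, the motors of spindle assembly and chromosome movement, 10 fell and 2 did not pass (median -0.96). Kif22 (-1.55 ± 0.15) and Kif2c (-1.50 ± 0.29) were lowest. Kifc1 (-0.53 ± 0.21, adjusted p = 0.0879) and Kif23 did not pass. Kif23, the central spindle motor that works beside Prc1, read 8.70, 8.58 and 8.45 in GFP-high and 8.46, 8.01 and 8.79 in GFP-negative arrays, overlapping (0.16 ± 0.19, adjusted p = 0.589). Of 28 other kinetochore and centromere genes 21 fell and 7 did not pass (median -0.77), with Knl1, the scaffold for Bub1, at -1.28 ± 0.17 and Cenpn at -1.22 ± 0.26. Zw10 (0.01 ± 0.10) and Cenpo (0.03 ± 0.13) were at the other end. Of 20 spindle pole and centrosome genes 14 fell, 1 rose and 5 did not pass (median -0.78). Hmmr, a spindle pole protein, was at -1.50 ± 0.19 and the centriole duplication gene Stil at -1.45 ± 0.20, while pericentrin (Pcnt) rose by 0.52 ± 0.11 (adjusted p = 0.00780) and Haus1 was at 0.26 ± 0.13 (adjusted p = 0.175).

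In another 3 lists at most 1 gene in 2 fell. Of 18 genes of the anaphase-promoting complex and its regulators, 5 fell (27.8%, against 17% of all genes) and 13 did not pass (median -0.28). The 2 lowest were Ube2s (-1.04 ± 0.11), the enzyme that follows Ube2c in building ubiquitin chains, and the inhibitor gene Fbxo5 (-0.86 ± 0.16). The core subunits Anapc10 (0.17 ± 0.16) and Anapc7 (0.12 ± 0.13) were highest. Of 19 condensin and cohesin genes 7 fell (36.8%) and 12 did not pass (median -0.26), with the condensin I genes Ncaph (-1.14 ± 0.15) and Ncapd2 (-1.07 ± 0.14) lowest and Wapl (0.03 ± 0.12) and Stag1 (-0.07 ± 0.11) highest. Among 14 phosphatases, inhibitory kinases and Cks genes of mitotic entry and exit, 7 fell and 7 did not pass (median -0.41). Cdc14b, a relative of the yeast phosphatase that reverses Cdk1 phosphorylation, read 8.92, 8.53 and 9.40 in GFP-high and 11.07, 11.14 and 10.56 in GFP-negative arrays (-1.97 ± 0.24, adjusted p = 0.000322), and Cdc14a followed (-1.20 ± 0.15). Within the GFP-negative group replicate 3, the highest array for most mitosis genes, was the lowest for both. Cks1b (-0.15 ± 0.13) and Ppp1cc (0.00 ± 0.16) did not pass.

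**Figure D4:**
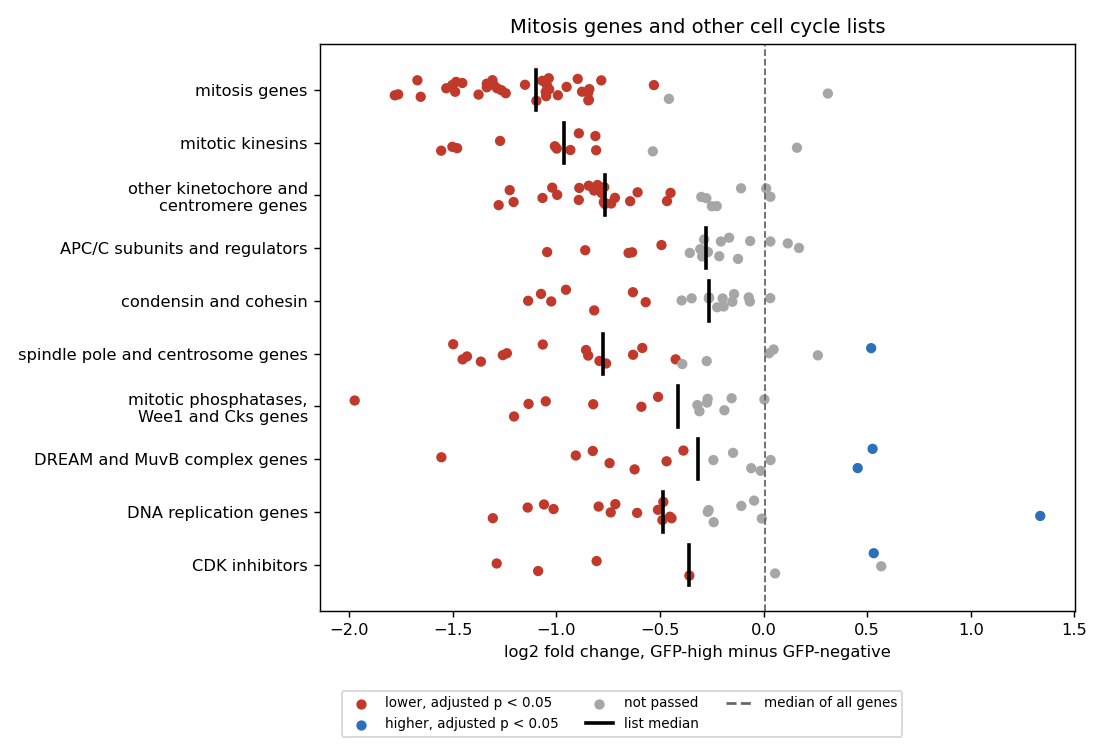
Log2 fold change (GFP-high minus GFP-negative) of each measured gene in the mitosis list and 9 other cell cycle lists. Points are genes, coloured by the limma call, black bars are list medians, and the dashed line is the median of all genes. The mitosis genes have the lowest median (-1.10), followed by the mitotic kinesins (-0.96).

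Regulators of the mitosis genes moved in both directions. Of 14 DREAM and MuvB genes 7 fell, 2 rose and 5 did not pass (median -0.31). The A-MYB gene Mybl1 fell by 1.55 ± 0.18 and the MuvB core gene Lin9 by 0.91 ± 0.14 on the log2 scale. The pocket proteins Rbl2 (p130, 0.53 ± 0.12) and Rbl1 (p107, 0.45 ± 0.12) rose. Rbl2 is one of the alleles deleted in these tumours, and no source used here places its probes relative to the deletion. Of 7 CDK inhibitors 4 fell, 1 rose and 2 did not pass (median -0.36). Cdkn1a (p21) fell by 1.29 ± 0.17 and Cdkn2d (p19) by 1.09 ± 0.14, while Cdkn2b (p15) rose by 0.53 ± 0.12 and Cdkn1c (p57) was at 0.57 ± 0.25 (adjusted p = 0.130).

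DNA replication genes, which act earlier in the cycle, had a median closer to 0. Of 20 measured, 13 fell, 1 rose and 6 did not pass (median -0.49). Rrm2 (-1.31 ± 0.23) and cyclin E1 (Ccne1, -1.14 ± 0.15) were lowest, although another, dimmer row of Rrm2 did not pass (-0.44, adjusted p = 0.0534). Dimmer rows also did not pass for Fen1 in this list (-0.23), or for Mybl2 (-0.07) and Ska2 (-0.16) in the lists above. The brighter rows that stood for these genes were called lower. They gave -0.71 ± 0.16 for Fen1, -0.74 ± 0.16 for Mybl2 (B-MYB, adjusted p = 0.00864) and -0.77 ± 0.17 for Ska2. The dimmer rows of Cks2 (-0.87) and Rbbp4 (-0.63) passed. Pola1 was at -0.01 ± 0.12. The gene that rose was geminin (Gmnn), which blocks licensing of replication origins from S phase to mitosis. It read 8.08, 7.91 and 8.04 in GFP-high and 6.71, 6.65 and 6.66 in GFP-negative arrays. Both groups were tight, and Gmnn was 2.52-fold higher (1.33 ± 0.11, adjusted p = 4.02e-05), opposite in direction to the cyclin gene Ccna2. Whether the lists differ from each other was not tested.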

How the data were processed

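Total RNA of 6 sorted samples was hybridised to Mouse Gene 2.0 ST arrays. The deposited values are log2 expression values that the authors made with RMA, as the submitters' processing notes name it, with no version. RMA equalises probe signals between arrays before summarising them, which can hide a change common to most genes. The deposited array medians ran from 5.30 to 5.43. Of 41344 rows, 23520 named exactly 1 gene in the platform annotation, 1814 several and 16010 none. The row with the highest mean represented a gene, which left 22179 genes with no filter on level. No member had a second row of its own.

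GFP-high was compared with GFP-negative in R 4.3.3 with limma 3.58.1 (lmFit and eBayes, no block, 4.50 prior and 4 residual degrees of freedom). P-values are two-sided and Benjamini-Hochberg adjusted over all genes. Only 3 arrays per group limit the precision, and exact permutation of 3 against 3 cannot go below 0.10. Labels call the samples biological replicates. Whether they are separate pools is not given, so p-values measure the spread between these samples. The fit was tested on simulated data.

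The members and the other lists were chosen with earlier results of these data known. Named genes are all members, the 2 lowest and 2 highest of each cell cycle list, examples from marker lists and Spc24, chosen after its value was seen. Genes of the cell cycle lists with a dimmer row are named too. Alternatives were 2 scalings, a filter on low genes, other row rules, other moderation, array weights, the replicate block and leaving out each array. Motifs were searched with Python 3.11.15.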

Additional observations from a re-analysis of the deposited data

How the results depend on the processing

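The count of mitosis genes called lower was 35 in the reported fit. It stayed between 34 and 35 under every scaling, filter, row rule, weighting and left-out array, 27 without moderation and 25 when a log2 fold change of at least 1 was also asked, and 0 were called higher in any of them. Of 555 recomputed fold changes of single mitosis genes 541 kept their direction and their side of the threshold, 14 kept the direction and lost the call, and no direction turned. The calls lost were 7 of Ect2 and 1 each of the 7 other genes named with the model without moderation. Calls over all genes numbered 6661, and 2584 with a log2 fold change of at least 1. Leaving out 1 array gave 5408 to 6116. Over 9 other cell cycle lists, an addition made after the data were seen, 134 of 135 recomputed counts stayed within 1.5 times, and the anaphase-promoting complex list reached 8. With the replicate block 35 mitosis genes were lower and 6172 genes were called. Same-numbered arrays deviated from their group means with correlations of 0.11, -0.03 and 0.00 across genes, and not every array correlated best with its own number. The same replicate numbers were most often lowest and highest for the mitosis genes in both groups, less sharply in GFP-high cells. The effect of the block on standard errors differed between genes. It lowered that of Dlgap5 from 0.24 to 0.13 and of Ckap2 from 0.21 to 0.12. That of Nek2 went from 0.136 to 0.134, and that of Cenpa rose from 0.189 to 0.203. These genes are examples. Whether equal numbers share a pool is not known, and the arrays were not treated as pairs.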

Other observations

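Rows that name a mitosis gene together with a second gene were not used above. There were 3. One naming Nusap1 changed by -0.57 ± 0.16 (log2 fold change ± SE, adjusted p = 0.0433 by limma over all rows). The other two named Top2a and changed by -0.59 ± 0.18 (adjusted p = 0.0597) and -0.57 ± 0.17 (adjusted p = 0.0513). The rows of Nusap1 and Top2a alone gave -1.29 and -1.33. Their signal cannot be given to 1 gene.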
